A study of Mus musculus with 3 samples.

Results

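The transcripts of 10 cytokine genes were followed through the leukocytes of the mouse aorta: *Il17a*, *Il17f*, *Il5*, *Il13*, *Il4*, *Csf2*, *Ifng*, *Areg*, *Ccl1* and *Il6*. They were chosen by name as cytokines of type 2 and type 17 lymphoid cells, with the partner signals of those cells, and make up 10 of the 32285 genes counted. All 10 were found, and their unique molecular identifiers (UMIs, 1 per captured transcript) were summed over 6 cell classes: 612 T cells, 153 γδ T cells, 239 type 2 innate lymphoid cells (ILC2), 75 NK cells, 65 mast cells and 2566 myeloid cells. These classes held between 92.9% (*Ifng*) and 100% (*Il5* and *Il17f*) of each gene's UMIs.

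The cells were CD45+ leukocytes of aortas analyzed by CITE-seq, which counts the transcripts of a single cell together with tagged antibodies on its surface. Hashtag antibodies marked the mouse of origin: mice 1 to 5 were Jak2WT, mice 6, 8 and 10 were Jak2V617F Myel with aortic dilation, and mice 7 and 9 were Jak2V617F Myel with aortic aneurysm. Jak2V617F Myel mice carry a conditional Jak2V617F allele that LysM-Cre, active in macrophages and neutrophils, switches on, so the lymphoid and mast cells described here are not the intended site of the mutation. Controls were littermates on the C57BL/6 background, male and female mice were used, and the age of these mice is not given in the sources used here; the 10 mice were pooled for 1 sort and 1 run, with blood leukocytes excluded by an antibody injected before sacrifice. The 4871 cells kept amounted to 112 to 811 cells and 1038443 to 9643994 UMIs per mouse. Jak2WT mouse 4 had the fewest cells and UMIs and gave 5 ILC2, 1 γδ T cell and no NK or mast cell. Free RNA of the shared pool can enter any droplet, so the 560 B cells (median 5388 UMIs), not known as a main source of these cytokines, served as the background: *Il17a*, *Il17f*, *Il5*, *Il13*, *Il4* and *Csf2* had no UMI in them, which allows a share of cells with a UMI up to 0.536% (3 counts of the total), and *Ifng*, *Areg*, *Ccl1* and *Il6* were seen in 1.07%, 1.79%, 0.179% and 1.79% of them. A second cluster with B cell markers, of 38 deeper cells, was not part of this background and held *Areg* in 3 cells (7.89%). Macrophage markers were its second-best list. It carried a mean of 456 antibody UMIs per cell for CD163, a surface protein of resident macrophages, against 28.4 in the 560 B cells. Its *Areg* is therefore not read as that of B cells. Intervals and limits on shares cover counting error only.

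Type 2 immunity is carried by ILC2, T helper 2 cells, mast cells and basophils, which answer IL-33 and related alarm signals through the transcription factor GATA3 and release IL-4, IL-5 and IL-13. Type 17 immunity is carried by γδ T cells and T helper 17 cells, which respond to IL-23 and release IL-17A and IL-17F. Interferon-γ marks NK and T helper 1 cells, GM-CSF (*Csf2*) and amphiregulin (*Areg*, a ligand of the EGF receptor) act on myeloid and tissue cells, CCL1 binds CCR8, and IL-6 is made by many myeloid and stromal cells.

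On GRCm38, the assembly of the mm10 reference, 5 of the 10 genes lie on chromosome 11. *Il4* (chr11:53602982-53618669, minus strand), *Il13* (chr11:53631324-53634702, minus strand), *Il5* (chr11:53720794-53725106, plus strand) and *Csf2* (chr11:54247271-54249667, minus strand) fall within 647 kb, with 12.7 kb between *Il4* and *Il13* and 86.1 kb between *Il13* and *Il5*. *Il17a* (chr1:20730905-20734496, plus strand) and *Il17f* (chr1:20777146-20790617, minus strand) are 42.6 kb apart. *Ccl1* is at chr11:82176657-82305690 (minus strand), *Ifng* at chr10:118441046-118445892, *Il6* at chr5:30013114-30019981 and *Areg* at chr5:91139599-91148432 (all plus strand).

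The 200 bases before the transcription start of *Il5* and *Il13* are printed because both were found mainly in ILC2. They are RefSeq sequence on GRCm38.p6, 5′ to 3′ on the strand of the gene. Capitals mark, on either strand, the letters AGATAA or else AGATAG, or their variants TGATAA and also TGATAG (which GATA factors can bind).
Il5, chr11:53720594-53720793, + strand: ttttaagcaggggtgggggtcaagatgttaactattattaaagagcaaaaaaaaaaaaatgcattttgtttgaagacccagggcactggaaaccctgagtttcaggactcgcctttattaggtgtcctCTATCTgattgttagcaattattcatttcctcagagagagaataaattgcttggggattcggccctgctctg
Il13, chr11:53634703-53634902, - strand: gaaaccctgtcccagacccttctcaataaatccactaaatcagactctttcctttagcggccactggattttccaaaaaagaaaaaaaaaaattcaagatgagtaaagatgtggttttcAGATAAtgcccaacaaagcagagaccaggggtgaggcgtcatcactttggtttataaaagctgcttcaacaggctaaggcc
The windows of *Il5* and *Il13* each held 1 match. Over the 11 windows of the 10 genes (*Il4* has 2 starts), 6 held a match, against 21.4% of 32851 promoter windows of the same length. The 6 were those of *Il5*, *Il13*, 1 start of *Il4*, *Ccl1*, *Ifng* and *Il6*. The windows of *Csf2*, also found mainly in ILC2, and of *Areg*, *Il17a* and *Il17f* held no match. Of the genes found mainly in ILC2, *Il5*, *Il13* and *Ccl1* thus held a match and *Csf2* did not. A link between matches and cell type was not tested. A match is a run of letters and not a measured binding site.

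Cell types were named from their markers, and surface antibodies gave a second view of them. The γδ T cells carried a mean of 5.85 TCRγδ antibody UMIs per cell against 0.17 in the other T cells, and mast cells carried 149.7 CD117 and 20.6 FcεRIα UMIs. ILC2 had low TCRβ (0.27) and CD3 (0.46) counts and the highest *Gata3* level of any type (637 CPM, which is a gene's UMIs scaled to an equal total in every sum of cells). *Gata3* was among the markers that named ILC2, so its level there is not an independent view. *Il23r*, which encodes a subunit of the IL-23 receptor, stood at 144 CPM in γδ T cells and at 0 in T cells. *Tbx21*, the type 1 regulator, was highest in NK cells (155 CPM). Because the types were found from the same cells, differences between types are described here without a test. The 10 cytokines were left out of the genes used for clustering.

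**Figure D1:**
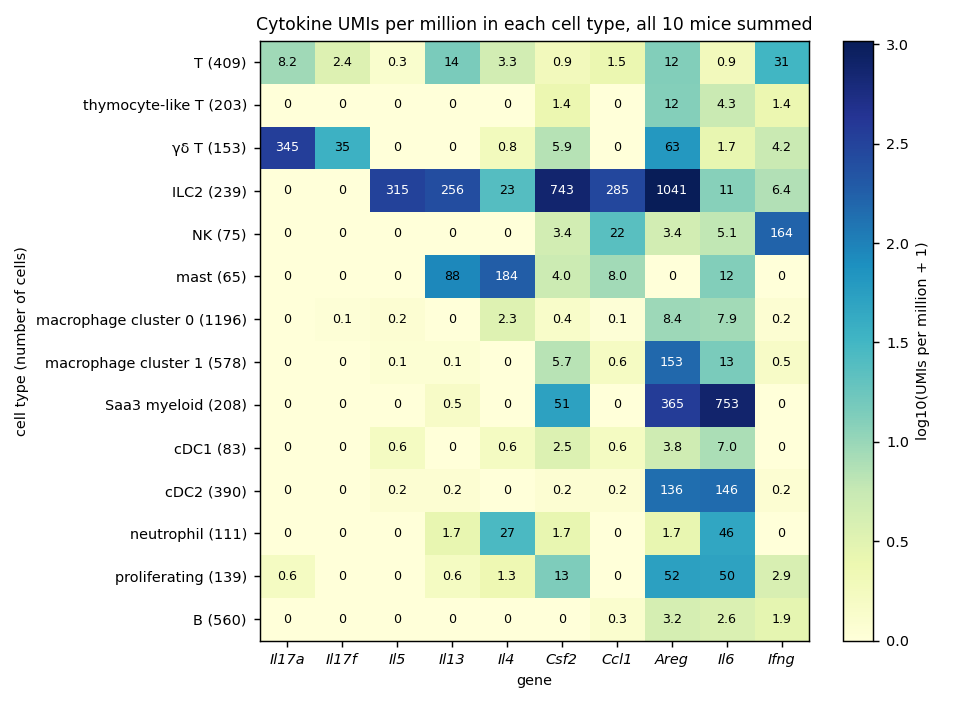
Heat map of the 10 cytokine genes (columns) in 14 cell types (rows, with their numbers of cells); each cell prints the CPM of the type, all 10 mice summed, and the color is log10 of that level plus 1. The IL-17 genes stand in γδ T cells, *Il5*, *Il13*, *Csf2* and *Ccl1* in ILC2, *Il4* in mast cells, *Ifng* in NK and T cells, *Il6* in *Saa3* myeloid cells and cDC2, and *Areg* in both lymphoid and myeloid types.

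*Il17a*, the main IL-17 cytokine, was almost entirely a γδ T cell transcript: 406 of its 435 UMIs (93.3%) were in γδ T cells, where 38 of 153 cells held it (24.8%, exact binomial 95% interval 18.2 to 32.5). The cells that had it held 10.7 UMIs on average, and 1 cell held 57. The remaining lymphoid signal was 27 UMIs in 5 T cells of 4 mice, all 5 with at least 10 CD4 antibody UMIs and none with a TCRγδ UMI, and 18 of these UMIs were in a single cell. Thymocyte-like T cells had no *Il17a*. *Il17f*, its closest relative, was rarer, at 41 UMIs in 13 γδ T cells and 8 UMIs in 3 T cells. Of the 13 γδ T cells with *Il17f*, 8 also had *Il17a*. At an equal depth of 2000 UMIs per cell, 4 of 20 γδ T cells with *Il17a* had *Il17f* (20%) and 1.54% of those without it did.

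*Il17a* was unevenly spread over the mice. Its γδ T UMIs numbered 2, 4, 0, 0 and 38 in Jak2WT mice 1 to 5, 1, 8 and 1 in the mice with dilation (6, 8 and 10), and 289 and 63 in the mice with aneurysm (7 and 9). The last pair held 86.7% of the *Il17a* UMIs of γδ T cells and 103 of the 153 γδ T cells, which were 7.27% and 5.53% of the cells of mice 7 and 9 against 0.752% to 3.02% in the other mice. In CPM of γδ T cells, *Il17a* reached 678 and 181 in the mice with aneurysm. It was also 557 in Jak2WT mouse 5, with 37 of its 38 UMIs in 1 of 9 cells, and 184 in mouse 8 with dilation, where 1 of 5 cells held all 8. The groups therefore overlapped on this scale. The share of γδ T cells with *Il17a* was 30.1% (95% interval 21.5 to 39.9) in aneurysm, 13.6% (2.91 to 34.9) in dilation and 14.3% (4.03 to 32.7) in Jak2WT, and 17.8%, 4.55% and 3.70% at equal depth. Cells of a group were pooled over its mice for these shares. The intervals therefore leave out the spread between mice and do not compare the groups.

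**Figure D2:**
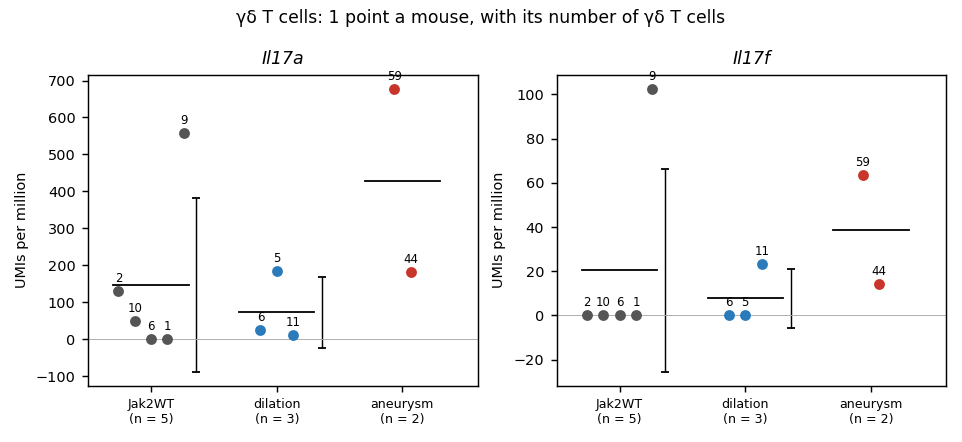
*Il17a* (left) and *Il17f* (right) in γδ T cells, in CPM of each mouse's γδ T cells, by group; each point is a mouse and the number above it is how many γδ T cells it gave. Horizontal lines are means and bars at their right are SD where a group has 3 or more mice. The mice with aneurysm reach 678 and 181 for *Il17a*, and a Jak2WT mouse with 9 cells reaches 557.

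Only 4 mice had the 10 γδ T cells set as the minimum for a test: Jak2WT mouse 2, mouse 10 with dilation, and mice 7 and 9. Of the 10 cytokines, 3 passed the filter on low counts. The quasi-likelihood test of edgeR was fitted across 4399 genes, with Benjamini-Hochberg adjustment. Between genotypes it set mice 7, 9 and 10 against Jak2WT mouse 2 alone, which is not a test of the genotypes. *Il17f* had no UMI in mouse 2 and passed the filter through the mutant mice. No difference or lack of one is therefore read between genotypes for the 3 cytokines. Between aneurysm and dilation, 1 of them, *Il17a*, was called against a background of 0.637%, at a log2 difference of 5.18 ± 0.71 (SE). This describes the 4 mice and is not a test of the groups. It sets 2 mice against 1 mouse whose 11 γδ T cells held a single *Il17a* UMI, and the gene passed the filter on low counts through the mice with aneurysm. Since the other groups had 1 mouse each, the spread came from mice 7 and 9 and from what edgeR shares across genes. With every mouse that had a γδ T cell, which brings in mice 1, 3, 4, 5, 6 and 8, the difference was 2.82 ± 0.99 (edgeR adjusted p = 1.00). Of these, mice 6 and 8 join the dilation group. DESeq2 did not call *Il17a* for the 4 mice with 10 γδ T cells. Between genotypes *Il17a* differed by 2.81 ± 0.96 (SE). It was 1.41 without mouse 7, 3.03 without mouse 9, 3.13 without mouse 10 and 0.55 in the fit of 3 groups. Each of these fits set mutant mice against a single Jak2WT mouse, so they describe these mice and do not test the genotypes. For *Il17f* the aneurysm-to-dilation difference was 0.81 ± 1.04 (edgeR adjusted p = 0.85). *Areg*, detected in 25 γδ T cells, stood at 86.8 and 63.2 CPM in mice 7 and 9 and at 11.6 in mouse 10 (log2 difference 2.67 ± 1.05, edgeR adjusted p = 0.338).

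ILC2 held most UMIs of 4 of the cytokines. They held 446 of the 452 UMIs of *Il5* (98.7%), the eosinophil growth factor, 363 of the 439 of *Il13* (82.7%), which acts on epithelium, smooth muscle and macrophages, 404 of the 433 of *Ccl1* (93.3%) and 1052 of the 1388 of *Csf2* (75.8%). *Areg* was also highest in ILC2 by CPM, although these held only 26.7% of its UMIs. Shares of ILC2 with at least 1 UMI were 53.1% for *Areg* (95% interval 46.6 to 59.6), 36.4% for *Csf2* (30.3 to 42.8), 24.7% for *Ccl1* (19.4 to 30.7), 19.7% for *Il5* (14.8 to 25.3), 17.2% for *Il13* (12.6 to 22.5) and 8.79% for *Il4* (5.52 to 13.1). The mean number of UMIs in a cell that held the gene was 12.1 for *Csf2*, 11.6 for *Areg*, 9.49 for *Il5* and 8.85 for *Il13*, but 1.57 for *Il4*.

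The ILC2 cytokines were found together in single cells. Of the 5 genes *Il5*, *Il13*, *Csf2*, *Areg* and *Ccl1*, 173 of the 239 ILC2 had at least 1, 58 had at least 3, and 4 had all of them. Of the 47 ILC2 with *Il5*, 21 also had *Il13* (44.7%), against 10.4% of the 192 without *Il5*. At equal depth the values were 34.4% and 6.97%. *Areg* accompanied *Il5* in 75.0% and *Il13* in 76.0% of cells at equal depth, against 32.8% and 34.1% of cells without the first gene. The second gene was more frequent in the presence of the first in all 10 pairs compared. These pairs left out *Ccl1* with *Areg* and included *Il4* with *Il13*. The smallest contrast was that of *Il13* with and without *Il4*, at 11.1% (1 of 9 cells) and 10.7%. ILC2 of the same mouse share their source, so these shares are descriptions without a test. They pool the ILC2 of all mice, and the part of differences between mice in them was not tested.

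**Figure D3:**
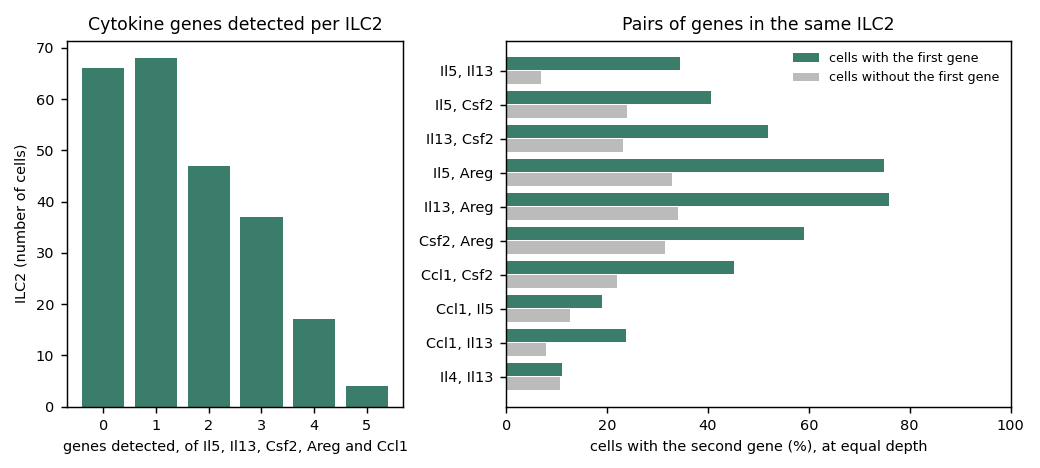
Left, numbers of ILC2 by how many of *Il5*, *Il13*, *Csf2*, *Areg* and *Ccl1* they held, from 66 cells with 0 to 4 cells with 5. Right, for 10 pairs, the percentage of ILC2 with the second gene among cells with (green) and without (gray) the first gene, all cells thinned to 2000 UMIs; the green bar is the longer in each pair.

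Across mice, the ILC2 cytokines differed in how the groups lay, and their association over mice was not tested. Among the Jak2WT mice, *Il5*, *Il13*, *Ccl1* and *Areg* were highest in mouse 2, but *Csf2* was highest in mouse 3. With aneurysm, *Il5*, *Il13*, *Ccl1* and *Areg* were higher in mouse 7 than in mouse 9, and *Csf2* was lower. In CPM of ILC2, *Il5* was 15.5, 277, 0 and 98.6 in Jak2WT mice 1, 2, 3 and 5, 496, 89.8 and 8.00 in mice 6, 8 and 10 with dilation, and 764 and 291 in mice 7 and 9 with aneurysm. Both aneurysm values exceeded all Jak2WT values, and mouse 6 with dilation lay between them. *Il13* was 15.5, 696, 57.6 and 567 in the same Jak2WT mice, 168, 148 and 144 with dilation, and 275 and 123 with aneurysm. The Jak2WT mice thus spanned the whole range of *Il13*, and the mutant mice lay inside it.

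*Csf2* had the smallest SD relative to its mean (704 ± 246, SD, 9 mice). It stood at 557, 473, 749 and 271 CPM in the Jak2WT mice, 1108, 860 and 840 in dilation, and 655 and 820 in aneurysm. A single Jak2WT mouse, mouse 3, lay above the lowest mutant mouse. *Ccl1* was 325, 576, 230 and 395 in the Jak2WT mice, 310, 77.0 and 56.0 in dilation, and 454 and 88.9 in aneurysm, so that 3 of 5 mutant mice lay below every Jak2WT mouse. *Areg* was 201, 1338, 158 and 1097 in the Jak2WT mice, 1257, 1623 and 855 in dilation, and 1092 and 751 in aneurysm. Mice 1 and 3, with 11 ILC2 each, gave the lowest *Areg* values.

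**Figure D4:**
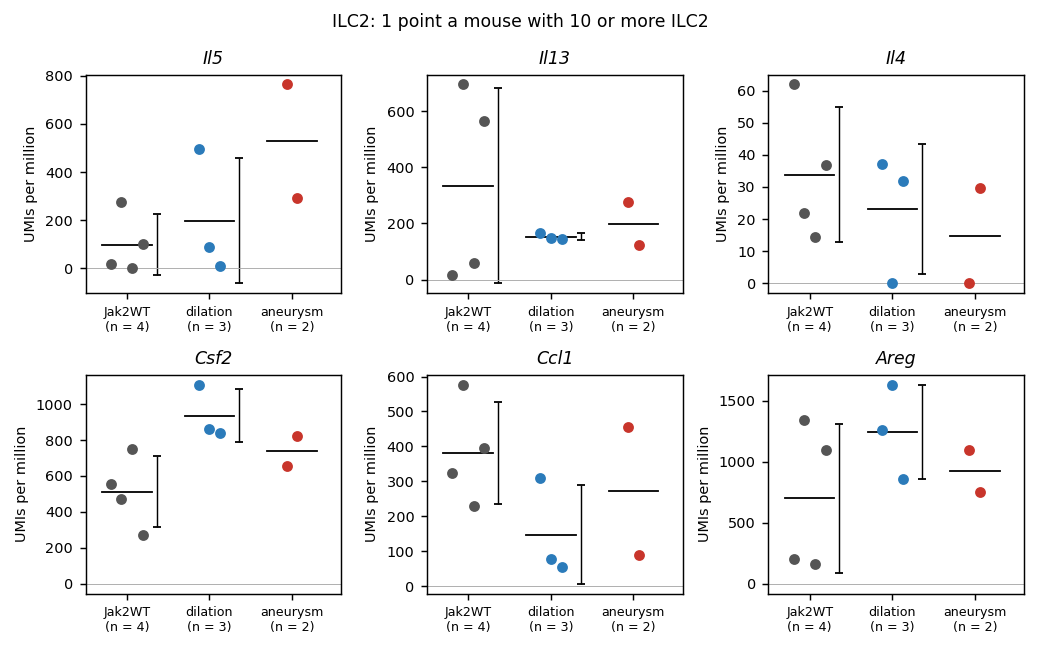
Levels of *Il5*, *Il13*, *Il4*, *Csf2*, *Ccl1* and *Areg* in ILC2, in CPM, by group; each point is 1 of the 9 mice with 10 or more ILC2, horizontal lines are means and bars are SD where a group has 3 or more mice. Groups overlap for every gene between genotypes, and *Csf2* lies at 655 to 1108 in mutant and 271 to 749 in Jak2WT mice.

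The question of whether ILC2 cytokines differ with the myeloid mutation was tested over 4 Jak2WT and 5 Jak2V617F Myel mice. Of the 8 cytokines seen in ILC2, 5 passed the filter on low counts and 0 were called by edgeR, against 0% of 1871 genes. At an unadjusted p under 0.05 edgeR had 2 of the 5 and 116 genes in all, and DESeq2 had 1 of the 5. DESeq2 called 0 of the 5 and 1 gene in all. *Csf2* was 856 ± 162 (SD, n = 5) in mutant and 513 ± 198 (SD, n = 4) CPM in Jak2WT ILC2. Its log2 difference was 0.73 ± 0.24 (SE), with a 95% interval of 0.22 to 1.23, an unadjusted p of 0.00746 and an adjusted p of 0.661 in edgeR's fit across all genes. The difference was -1.14 (95% interval -2.23 to -0.05) for *Il13*, -0.97 (-1.94 to 0.00) for *Ccl1*, 1.39 (-0.21 to 2.99) for *Il5* and 0.56 (-0.35 to 1.47) for *Areg*. Single mice moved these values, and none was called without any 1 mouse. Without Jak2WT mouse 2 they were 2.96 for *Il5*, -0.48 for *Il13* and 1.06 for *Areg*, and without mouse 7 they were 0.87 for *Il5* and -1.49 for *Ccl1*. Without the filter on low counts, edgeR called 6 of the 8 cytokines seen in ILC2 against 0.321% of 12449 genes. The edgeR adjusted p values were 5.54e-06 to 0.0433, with the same directions for the 5 above. The sixth was *Ifng*, on 9 UMIs of 1 mouse. The filtered fit and DESeq2 called 0 of the 5, so the calls without the filter are not read as a difference between genotypes. The 11 immediate-early and heat-shock genes, which rise when tissue is digested, summed to 3728 to 10951 CPM in Jak2WT and 8198 to 11978 in mutant ILC2, and their part in the differences was not tested.

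Between aneurysm and dilation, 0 of the 5 cytokines were called in ILC2 by edgeR against 0% of 2466 genes. No cytokine and 66 genes had an unadjusted p under 0.05, and DESeq2 called 0 genes. The log2 differences were 1.20 ± 0.75 for *Il5*, 0.69 ± 0.57 for *Ccl1*, 0.32 ± 0.69 for *Il13*, -0.40 ± 0.29 for *Csf2* and -0.49 ± 0.54 for *Areg* (SE, 2 against 3 mice).

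*Il4*, the cytokine that drives IgE and alternative macrophage activation, had a different main cell type. Mast cells, of which 31 of 65 (47.7%, 95% interval 35.1 to 60.5) held it at no more than 4 UMIs a cell, had 157 ± 37.7 CPM (SD, 4 mice with 10 or more cells) against 26.0 ± 19.6 in ILC2 (SD, 9 mice). They were the shallowest class, with a median of 2821 UMIs per cell. *Il13* was in 11 mast cells at 22 UMIs. In the T cells, a single CD4+ cell of mouse 2 held 45 of the 45 *Il13* UMIs, 7 of the 11 *Il4* UMIs and 6 *Gata3* UMIs. Another 15 *Il4* UMIs came from 1 cell that clustered with the neutrophils, in mouse 6, with 380 *Mcpt8* and 815 *Prss34* UMIs (proteases of basophils), 138 FcεRIα and 0 Ly6G antibody UMIs, and 26 *Il6* UMIs. It was the only cell of the 4871 with 10 or more *Mcpt8* UMIs. Macrophage cluster 0 held 28 *Il4* UMIs in 15 of 1196 cells, 11 of them in 1 cell of mouse 8.

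By group, *Il4* in mast cells was 202 CPM in Jak2WT (18 cells), 201 in dilation (27 cells) and 150 in aneurysm (20 cells), over all mice of a group summed. The share of mast cells with *Il4* was 38.9% (17.3 to 64.3), 55.6% (35.3 to 74.5) and 45.0% (23.1 to 68.5). Only 1 Jak2WT mouse reached 10 mast cells, and no test was made. These intervals also pool the cells of a group over its mice and do not compare the groups.

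*Ifng*, the defining cytokine of type 1 immunity, was divided between 97 UMIs in 29 of 75 NK cells (38.7%, 95% interval 27.6 to 50.6) and 104 UMIs in 34 of 612 T cells (5.56%, 3.88 to 7.68). The thymocyte-like cluster, 203 of these T cells, held 1 of the UMIs. Outside it, 33 of 409 T cells held *Ifng* (8.07%, 5.62 to 11.1). Of these 33, 15 had at least 10 CD4, 10 at least 10 CD8a and 5 at least 10 NK1.1 antibody UMIs. γδ T cells had 5 *Ifng* UMIs, all in 1 cell, and NK cells had no *Il17a*. In T cells, *Ifng* was 164, 0, 0, 0 and 52.0 CPM in Jak2WT mice 1 to 5, 9.53, 50.5 and 15.1 in dilation, and 51.6 and 5.87 in aneurysm. These T cell sums include the thymocyte-like cells, whose number differed between mice. In NK cells the group sums were 359 (17 cells), 130 (27 cells) and 74.4 (31 cells) CPM in Jak2WT, dilation and aneurysm. Only 2 mice, both mutant, had 10 NK cells, so this order was not tested, and 39 of the 50 Jak2WT UMIs were in mouse 1.

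For T cells, 0 of the 10 cytokines passed the filter in the genotype comparison, where edgeR called 0.0259% of 3856 genes. In the comparison of aneurysm with dilation 2 passed and 0 were called, against 0% of 4992 genes. None of the 2 and 226 genes in all had an unadjusted p under 0.05 there, and DESeq2 called 0 genes. *Ifng* differed by 0.39 ± 1.51 and *Areg* by 1.89 ± 1.35 on the log2 scale (SE, edgeR). The 203 thymocyte-like cells were unevenly spread, at 0, 1, 71, 1 and 0 in Jak2WT mice 1 to 5. They numbered 34, 4 and 68 in mice 6, 8 and 10 with dilation and 0 and 24 in mice 7 and 9 with aneurysm. Without them *Areg* differed by 4.18 ± 1.83 (edgeR adjusted p = 0.921) and *Ifng* by -0.022 ± 1.29. Without mouse 9, which held 15 *Areg* UMIs against 4 in mouse 7, *Areg* differed by 0.53.

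*Areg* was the most abundant and the most widely spread of the 10, with 5521 UMIs in 475 cells. Its mean over mice with 10 or more cells of a type was 930 ± 497 CPM in ILC2 (SD, 9 mice), 464 ± 165 in *Saa3* myeloid cells (3 mice), 146 ± 110 in type 2 dendritic cells (cDC2, 9 mice), 105 ± 91.5 in macrophage cluster 1 (9 mice, led by *Spp1* and *Mmp12*), 46.6 ± 34.6 in γδ T cells (4 mice) and 8.18 ± 9.87 in macrophage cluster 0 (10 mice, led by *Lyve1* and *Folr2*). Neighbors in this order overlapped within their SD, except *Saa3* myeloid cells and cDC2. In UMIs, *Saa3* myeloid cells (1543), ILC2 (1474) and macrophage cluster 1 (1227) gave similar amounts. A single macrophage of mouse 7 held 242 *Areg* UMIs.

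Within the macrophages, *Areg* separated the mice with aneurysm from the rest. It was 122 and 109 CPM in mice 7 and 9, 16.6, 19.2 and 7.26 in mice 6, 8 and 10 with dilation, and 1.98, 74.7, 17.5, 2.09 and 17.6 in Jak2WT mice 1 to 5. The difference between aneurysm and dilation was 3.19 ± 0.63 on the log2 scale (SE, 2 against 3 mice), with an edgeR adjusted p of 0.00553. In that comparison 10% of 9050 genes were called. DESeq2 gave 3.10 ± 1.29 with an adjusted p of 0.124. Without mouse 7 the difference was 3.08 and without mouse 9 it was 3.27 (edgeR adjusted p = 0.0381 and 0.0264). The mice differed in which macrophages they held: cluster 1 was 29.8% and 26.5% of all cells in mice 7 and 9 and 2.32% to 6.25% in the other mice. Of the 1227 *Areg* UMIs of cluster 1, 91.0% were in mice 7 and 9, which also held 453 of its 578 cells. Inside cluster 1, *Areg* was 174 and 169 in mice 7 and 9, 52.0, 51.1 and 7.94 in dilation, and 0 to 284 in Jak2WT. The difference there was 2.37 ± 0.81 (edgeR adjusted p = 0.619), and inside cluster 0 it was -0.77 ± 0.90 (adjusted p = 1.00). The immediate-early and heat-shock genes summed to 16428 to 17894 CPM in macrophages of aneurysm and 28346 to 30956 in those of dilation, and neither their part nor that of the cluster shares was tested. The split by cluster was chosen after the values were seen. Choosing macrophages alone was an alternative to the test of all myeloid cells, where *Areg* was 101 and 109 CPM in aneurysm, 40.0, 154 and 154 in dilation, and 7.07 to 179 in Jak2WT, with a difference of -0.14 ± 0.81 (edgeR adjusted p = 0.987).

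*Il6* was a myeloid transcript, with 95.1% of its 4561 UMIs in that class. *Saa3* myeloid cells, led by *Saa3*, *Prg4*, *Serpinb2* and *Alox15*, held 3182 of them in 157 of 208 cells (75.5%, 95% interval 69.1 to 81.2). Those that had *Il6* held 20.3 UMIs on average. Whether *Saa3* myeloid cells lie in the aortic wall was not tested. In cDC2, 103 of 390 cells (26.4%, 22.1 to 31.1) held 914 UMIs. By level the order was *Saa3* myeloid cells (734 ± 160 CPM, SD, 3 mice), cDC2 (177 ± 103, 9 mice) and macrophages (9.34 ± 6.15, 10 mice). Over mice, the range of cDC2 (68.0 to 365) met neither that of *Saa3* myeloid cells nor that of all macrophages. Macrophage cluster 1 alone ranged from 0 to 76.7 CPM (9 mice) and met that of cDC2. ILC2 held *Il6* in 5.86% of cells at 8.23 ± 10.4 CPM (SD, 9 mice), against 1.79% and 3.30 ± 3.64 in B cells (9 mice). *Saa3* myeloid cells also held *Areg* in 69 cells and 217 *Csf2* UMIs in 14 cells, 104 of them in 1 cell.

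*Saa3* myeloid cells came mostly from 2 mice of different groups: 78 from Jak2WT mouse 5 and 99 from mouse 10 with dilation, with 31 from all others. These 2 mice held 90.5% of the *Il6* UMIs of *Saa3* myeloid cells. In all myeloid cells, *Il6* was 43.2, 66.2, 19.3, 75.2 and 328 CPM in Jak2WT mice 1 to 5, 120, 90.3 and 365 in mice 6, 8 and 10, and 26.1 and 35.1 in mice 7 and 9. Mice 5 and 10 were thus the highest of their groups, and both mice with aneurysm lay below every mouse with dilation. Within cDC2 the values were 93.6, 214, 274 and 115 in the Jak2WT mice with 10 or more cells (1, 2, 4 and 5), 365, 68.0 and 242 in dilation, and 68.2 and 155 in aneurysm, and the groups overlapped.

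**Figure D5:**
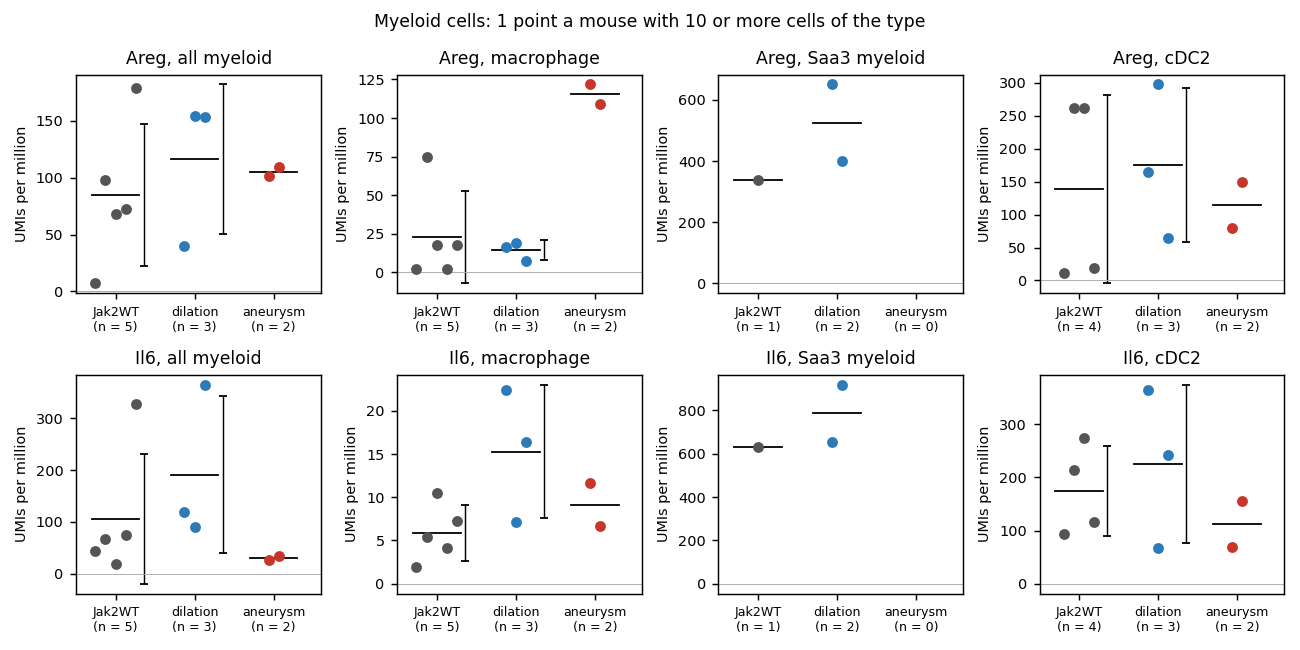
*Areg* (top) and *Il6* (bottom) in all myeloid cells, macrophages, *Saa3* myeloid cells and cDC2, in CPM, by group; each point is a mouse with 10 or more cells of the type, horizontal lines are means and bars are SD where a group has 3 or more mice. *Areg* in macrophages is 109 and 122 in the mice with aneurysm and at most 74.7 elsewhere, and *Il6* in all myeloid cells is highest in Jak2WT mouse 5 (328) and mouse 10 with dilation (365).

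Between genotypes, 2 of the 9 cytokines with a myeloid UMI passed the filter and 0 were called by edgeR, against 0% of 9291 genes. At an unadjusted p under 0.05 there were 0 of the 2 and 854 genes in all, and DESeq2 called neither and 28 genes in all. *Il6* differed by 0.20 ± 0.82 and *Areg* by 0.35 ± 0.57 on the log2 scale (SE, 5 against 5 mice). Between aneurysm and dilation 4 passed and 0 were called, against 0.784% of 10207 genes. DESeq2 called 0 of them, and both tools had 2 at an unadjusted p under 0.05. *Il6* had a log2 difference of -2.67 (95% interval -5.02 to -0.33, edgeR adjusted p = 0.33). The same mice differed in the immediate-early and heat-shock genes (11 of 11 with a UMI), which summed to 14646 to 14983 CPM in myeloid cells of aneurysm and 20308 to 22988 in those of dilation. Neutrophil markers (5 of 5) summed to 1997 to 2463 and 149.9 to 778 CPM, and the part of either in the result was not tested. Without the *Saa3* myeloid cells the difference was -0.97 ± 0.47 and in cDC2 alone -0.99 ± 0.58 (edgeR adjusted p = 0.30 and 0.85). *Il4* differed by -3.23 ± 1.10 (edgeR adjusted p = 0.244) on 45 UMIs, of which the cell with *Mcpt8* held 15 and the macrophage of mouse 8 held 11. It passed the filter on low counts through the mice with dilation, so that this difference, and the -3.94 without mouse 10 that edgeR called (adjusted p = 0.0388), describe these libraries and those 2 cells and do not test the groups. *Csf2* differed by -1.57 ± 1.40 (edgeR adjusted p = 0.726).

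Other genes of these pathways were read from 6 lists of 76 genes in all: other lymphoid cytokines, regulators and receptors of type 2, type 17 and type 1 immunity, cytokines that feed lymphoid cells, and immediate-early and heat-shock genes. Over the 8 comparisons 3 list genes were called, against 0% to 0.784% of all genes tested in each. *Egfr*, the receptor of amphiregulin, was lower in myeloid cells of aneurysm than of dilation by a log2 difference of -1.15 ± 0.22 (edgeR adjusted p = 0.0394), the only one of 14 tested type 2 genes there (0.784% of all genes). The summed myeloid cells differed in make-up: macrophage cluster 1 had 453 cells in aneurysm and 59 in dilation. *Saa3* myeloid cells numbered 4 and 116, and neutrophils 54 and 15. The part of this make-up in the *Egfr* difference was not tested. *Atf3*, a stress-response factor, was called in γδ T cells at -2.07 ± 0.43 for 3 mutant mice against a single Jak2WT mouse (0.25% of all genes called), and *Fos*, an early-response gene, at 1.45 ± 0.35 for the mice with aneurysm against the single mouse with dilation (0.637%). With 1 mouse in an arm, neither is a test of the groups. In ILC2, 0 of 7 tested type 2 genes were called between genotypes by edgeR (0% of all genes), with a median log2 difference of 0.16 against -0.02 over all genes tested. *Il1rl1*, the IL-33 receptor, differed there by 0.11 ± 0.17. In γδ T cells, *Il23r* differed by -0.17 ± 0.41 for the mice with aneurysm against the single mouse with dilation, which is also no test of the groups.

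Over 15 named cell types, with log2(CPM + 1) of all mice summed and 12472 candidate genes, the genes most like each cytokine were ranked by Pearson correlation. The types differ in depth and number of cells, and the correlations are descriptions. *Il17a* and *Il17f* were most like *Aqp3* and *Cd163l1* (r = 0.97 for the nearest of each), *Il5* like *Ctnna2* (0.995), *Ccl1* like *Igsf5* (0.92), *Csf2* like *Arg1* (0.86), *Ifng* like *Fasl* (0.97), *Il4* like *Ms4a2* (0.89) and *Il6* like *Grk5* (0.89). *Il13* and *Areg* had no gene above 0.80 (*Calca* at 0.73 and *Tmem176b* at 0.80). *Cd163l1*, *Arg1* and *Ms4a2* were among the markers that named γδ T cells, ILC2 and mast cells. Their matches are therefore not an independent view.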

How the data were processed

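The deposited matrix holds UMI counts of 32285 genes, 75 antibodies and 10 hashtags in 8471 barcodes of 1 pool. Per the file headers and labels, the authors made these counts with Cell Ranger 6.0.2 on mm10 and processed them with Seurat 3.0.0. Gene positions were read from GENCODE on GRCm38, the same assembly. The series lists 3 libraries of the 1 pool, and mice were told apart by hashtag alone, with the key from the labels. The members and the gene lists were chosen with earlier results of these data known.

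Hashtags were assigned with HTODemux in Seurat 5.3.0 (R 4.3.3, Matrix 1.6.5, quantile 0.99). Of the barcodes, 5857 had 1 hashtag, 2265 had more and were left out as doublets (doublets within a mouse are not seen this way), and 349 had none. Cells over 10% mitochondrial UMIs were left out (986), and 4871 were kept. Clustering used 2000 variable genes without the 10 cytokines, 20 principal components and resolution 0.3. Clusters were named from a list of markers (at least 3 detected), and a cluster of 343 cells with few UMIs stayed unnamed and outside the classes. Names rebuilt in this way may differ from those of the study. Shares at equal depth used cells thinned to 2000 UMIs, and 398 cells with fewer were left out.

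Counts were summed per mouse and class, and sums of at least 10 cells were tested with edgeR 4.0.16 (filterByExpr, TMM, quasi-likelihood F test, two-sided, Benjamini-Hochberg adjustment over all genes tested, threshold 0.05). Jak2V617F Myel was compared with Jak2WT in a fit of 2 groups, and aneurysm with dilation in a fit of 3 groups. Both share mice. The mice are separate animals, but sorting and sequencing were done once, so the p-values measure only the spread between mice of 1 pool. The sort was adjusted by genotype, so numbers of cells were not tested between genotypes, and shares of cells per mouse are descriptions. Alternatives were DESeq2 1.42.0, no filter on low counts, MULTIseqDemux, a mitochondrial limit of 5%, resolution 0.5, the cytokines among the variable genes, sums of at least 1 cell, other groupings of mice or cells, and leaving out each mouse. The edgeR step was tested on simulated data. All 10 cytokines are named whatever their values. Of the other lists the called genes are named, with fixed regulators (1 of which is not reported here), and the genes most like each cytokine come from 3 per cytokine with at least 50 UMIs. A level in CPM is a gene's UMIs in the mouse's cells of a type, scaled to an equal total of UMIs.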

Additional observations from a re-analysis of the deposited data

Results flagged for a closer look

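In groups of 4 or 5 mice, a mouse was noted where its gap to the next, over the whole range, exceeded Dixon's 95% critical value. Of 24 groups checked, 6 met this, all with 5 mice. Chance flags about 1 in 20 groups of independent, normally distributed values, which these levels need not be. *Areg* in T cells was 99.1 CPM in Jak2WT mouse 4, which gave 12 T cells, with the next mouse at 6.58. It was 44.0 in mouse 9 with aneurysm, with the next mutant mouse at 12.0. *Areg* in macrophages was 74.7 in Jak2WT mouse 2, with the next at 17.6. In myeloid cells of Jak2WT mouse 5, *Csf2* was 32.1 against 1.505 in the next mouse and *Il6* was 328 against 75.2. *Il6* was 365 in myeloid cells of mouse 10 with dilation against 120 in the next mutant mouse. Mouse 5 gave 78 and mouse 10 gave 99 of the 208 *Saa3* myeloid cells, and 1 of the former held 104 *Csf2* UMIs.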

How the results depend on the processing

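Of 386 values for 25 cytokine differences under the alternatives, 351 kept direction and side of the threshold, 9 passed it, 5 no longer passed it and 21 changed direction. Of 40 levels by cell type 39 moved by less than 1 SD between mice. Some could not move, since resolution 0.5 kept the same ILC2, NK and mast cells. *Ifng* in NK cells went from 164 to 156 CPM with MULTIseqDemux, set against an SD of 4.03 that came from only 2 mice. The causes of these changes were not tested.

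The number of genes called in T cells by genotype (1) was 4 with DESeq2, 25 without the filter on low counts, 0 with a mitochondrial limit of 5%, 0 with the cytokines among the variable genes, 0 in the fit of 3 groups, 0 without thymocyte-like cells and 0 to 2 without 1 mouse. In T cells between aneurysm and dilation (0) it was 57 without the filter. In γδ T cells by genotype (11) it was 1 with DESeq2, 24 without the filter, 7 with MULTIseqDemux, 0 with sums of at least 1 cell, 30 in the fit of 3 groups and 20 to 40 without 1 mouse. In γδ T cells between aneurysm and dilation (28) it was 0 with DESeq2, 12 with MULTIseqDemux, 0 with sums of at least 1 cell and 2 for aneurysm against the 8 other mice. In ILC2 by genotype (0) it was 1 with DESeq2, 40 without the filter and 0 to 1 without 1 mouse, and between aneurysm and dilation (0) it was 2 without the filter. In myeloid cells by genotype (0) it was 28 with DESeq2, 9 in the fit of 3 groups, 1 without *Saa3* cells, 3 in cDC2 alone and 0 to 12 without 1 mouse, the highest without mouse 5. In myeloid cells between aneurysm and dilation (80) it was 245 with DESeq2, 287 without the filter, 139 with MULTIseqDemux, 253 against the 8 other mice, 905 in macrophages alone, 438 without *Saa3* cells, 8 in cDC2 alone and 5 to 251 without 1 mouse, the lowest without mouse 9 and the highest without mouse 5.

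The log2 difference between aneurysm and dilation changed sign for *Ifng* in T cells (main value 0.39) against the 8 other mice (-0.14), without thymocyte-like cells (-0.022) and without mouse 7 or mouse 10 (-1.96 and -0.10, in a range of -1.96 to 1.29 without 1 mouse). In ILC2 it did so for *Il13* (0.32) with MULTIseqDemux (-0.034), against the 8 other mice (-0.48) and without mouse 7 (-0.37, in a range to 0.75), for *Csf2* (-0.40) against the 8 other mice (0.0028), and for *Ccl1* (0.69) against the 8 other mice (-0.11) and without mouse 7 (-0.90, in a range to 1.94). For *Areg* in myeloid cells (-0.14) it was 0.10 against the 8 other mice, 3.19 in macrophages alone, 1.10 without *Saa3* cells, and 0.07 and 0.16 without mice 8 and 10, and within macrophages (3.19) it was -0.77 in cluster 0 alone. The genotype difference of *Il6* in myeloid cells (0.20) was -0.54 in the fit of 3 groups, -0.0023 in cDC2 alone, and -0.01, -0.06 and -0.79 without mice 1, 3 and 10, in a range of -0.79 to 1.42 without 1 mouse. The alternatives without *Saa3* cells, in cDC2 alone and within macrophages were chosen after seeing the data.

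γδ T, NK and mast cells were few in most mice, so a cytokine at 0 in a mouse there was not detectable at this depth. No paired analysis was possible because each hashtag number marks a different mouse and no number is shared between groups.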
